A study of Mus musculus with 12 samples.

Results

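The Schlafen genes are a family of interferon-responsive genes of the immune system, and 7 of the 25655 genes in the deposited tables were its listed members: Slfn1, Slfn2, Slfn3, Slfn4, Slfn5, Slfn8 and Slfn9. They were taken by symbol, and the family was picked because Slfn1 and Slfn4 stand out among the genes raised by MBV and fluvastatin given together. That combined group was not analysed here, because the count columns of its table name no library. The values below are from the other 3 groups of 3 samples each, 9 of the 12 libraries of the series. All were whole retinae of C57BL/6 mice (C57BL/6J in the protocol) aged 8 to 10 weeks by the sample labels (8 weeks in the protocol), taken 2 days after optic nerve crush (ONC) of the left eye. Every eye had 1 intravitreal injection after ONC. The control group had PBS, the fluvastatin group a statin that inhibits HMG-CoA reductase, and the MBV group matrix-bound nanovesicles prepared from porcine urinary bladder. No uninjured or uninjected retina was among these groups, so all values are from crushed and injected eyes. Nothing in the labels ties a library to a single animal, and the p-values measure the spread between these samples.

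Schlafen proteins share a core with nuclease-like features that, in several members, cuts or binds RNA and slows protein synthesis and cell division. Mouse members fall into short forms (Slfn1, Slfn2), intermediate forms with an added linker (Slfn3, Slfn4), and long forms that also carry a helicase-like domain and can enter the nucleus (Slfn5, Slfn8, Slfn9). Most are expressed in lymphocytes and in monocytes and macrophages, and type I interferon, through the receptor IFNAR, JAK kinases and STAT factors, induces many of them. The retina holds microglia as its resident macrophages, and few circulating leukocytes before injury.

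The 7 genes lie next to one another on chromosome 11, in 263806 bases (GRCm39 82842175 to 83105980) with no other gene of the deposited tables between them. Slfn5 (chr11:82842175-82855666, plus strand) opens the cluster and is followed by Slfn9 (chr11:82869216-82882656) and Slfn8 (chr11:82892984-82911636), both on the minus strand. Slfn2 (chr11:82955938-82961504), Slfn1 (chr11:83007675-83013496), Slfn4 (chr11:83066012-83081042) and Slfn3 (chr11:83082156-83105980) follow on the plus strand. The positions are of whole genes, from first to last exon. In GENCODE release 39, transcripts on the opposite strand overlap Slfn5, Slfn9, Slfn8 and Slfn2, and strand use in the counting is not given in the sources used here, so reads of such pairs cannot be told apart. Near-identical copies also limit how surely a read of 75 bases can be placed. Of all 75-base stretches of each gene's transcripts, 25.3% of those of Slfn8 and 18.7% of those of Slfn5 occur in transcripts of another gene, for Slfn5 mostly in its antisense partner Slfn5os. The share was 5.46% for Slfn9, 3.57% for Slfn3, 2.76% for Slfn4, 1.41% for Slfn2 and 0% for Slfn1. In this respect the counts of Slfn8 and Slfn5 are the least certain, and those of Slfn1 the most.

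**Figure D1:**
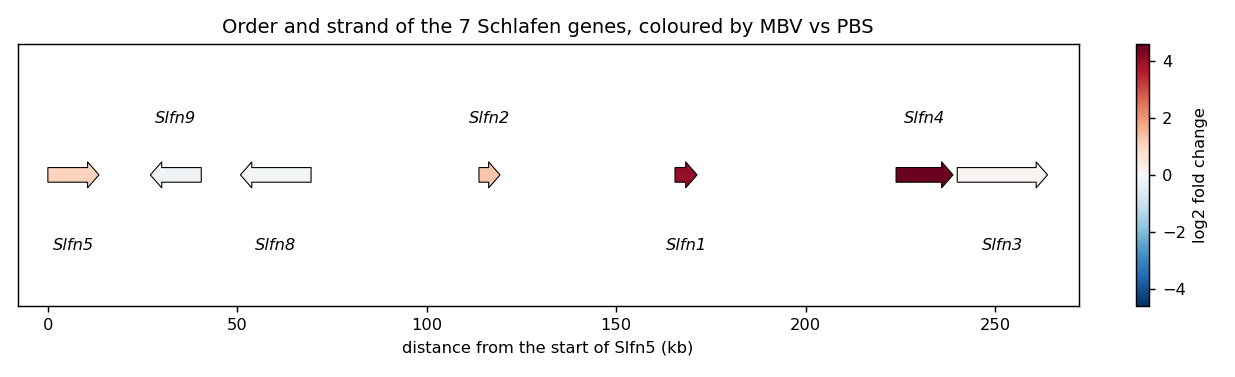
Position of the 7 Schlafen genes along the cluster, as distance in kb from the start of Slfn5; arrows point in the direction of transcription and their colour is the edgeR log2 fold change of MBV against PBS. The 2 darkest arrows are Slfn1 (4.03) and Slfn4 (4.50), which lie in the right part of the cluster. Neither passed an FDR of 0.05, and without MBV replicate 3 their values were 1.49 and 1.01.

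The promoters of 4 members are shown because they carry the sequence that divides the family. Each runs from 250 bases before to 50 bases after the start in RefSeq (GRCm38.p6, so the coordinates are not those given above), 5′ to 3′ on the gene's strand. All 7 members had an entry. Slfn1 (chr11:83116570-83116869, plus strand) and Slfn4 (chr11:83174936-83175235, plus strand), the pair that led to the choice of the family, share a run of 15 bases, given in capitals. It lies 74 to 60 bases before the start of Slfn1 and 73 to 59 bases before that of Slfn4. Searched on either strand, it was in 2 of 32851 promoters (0.00609%), which are these 2. The run was defined as the longest that they share, so its rarity is no separate result. Slfn2 holds the first 11 bases of it and Slfn3 the first 9.
Slfn1: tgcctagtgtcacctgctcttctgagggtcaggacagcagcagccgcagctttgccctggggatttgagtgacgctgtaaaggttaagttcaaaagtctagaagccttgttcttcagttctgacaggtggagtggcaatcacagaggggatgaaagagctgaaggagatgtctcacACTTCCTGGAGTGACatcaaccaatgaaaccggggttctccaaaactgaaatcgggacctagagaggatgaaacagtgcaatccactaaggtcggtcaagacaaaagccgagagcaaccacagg
Slfn4: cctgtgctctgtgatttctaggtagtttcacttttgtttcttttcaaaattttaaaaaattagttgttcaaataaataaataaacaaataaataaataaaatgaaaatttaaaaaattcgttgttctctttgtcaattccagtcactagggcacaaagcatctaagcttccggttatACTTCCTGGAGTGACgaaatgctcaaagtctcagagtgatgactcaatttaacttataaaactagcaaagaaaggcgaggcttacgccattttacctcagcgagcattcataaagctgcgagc
The first 7 bases of that run are the reverse complement of AGGAAGT, a form of the core that ETS transcription factors recognise. This motif, searched on both strands, was in the windows of Slfn1, Slfn2, Slfn3 and Slfn4, against 9.35% of all promoters, and Slfn3 held it 2 times. In Slfn2 (chr11:83064862-83065161, plus strand), where capitals mark the match, it lies 55 to 49 bases before the start.
Slfn2: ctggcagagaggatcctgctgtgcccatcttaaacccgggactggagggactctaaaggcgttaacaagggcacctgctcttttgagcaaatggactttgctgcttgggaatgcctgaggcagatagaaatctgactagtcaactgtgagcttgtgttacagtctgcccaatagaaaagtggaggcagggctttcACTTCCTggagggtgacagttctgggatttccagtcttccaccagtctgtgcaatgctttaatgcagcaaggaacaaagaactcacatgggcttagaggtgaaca
The 3 long members lacked these letters and held instead the core of the interferon-stimulated response element, GAAA and GAAA with any 2 bases between, which 3.44% of promoters contain on either strand. In Slfn5 (chr11:82951852-82952151, plus strand), capitals again mark the match, 155 to 146 bases before the start.
Slfn5: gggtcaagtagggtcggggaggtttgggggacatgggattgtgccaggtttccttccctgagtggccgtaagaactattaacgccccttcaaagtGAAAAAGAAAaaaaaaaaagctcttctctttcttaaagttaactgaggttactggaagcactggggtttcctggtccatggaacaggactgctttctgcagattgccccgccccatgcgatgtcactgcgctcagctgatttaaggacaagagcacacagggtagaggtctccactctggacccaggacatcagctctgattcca
In Slfn9 and Slfn8 the match reads TTTCGTTTTC, 45 to 36 and 48 to 39 bases before the start, and both promoters share a run of 20 bases elsewhere. The gamma-interferon site TTCNNNGAA, present in 8.30% of promoters, was in none of the 7 windows. These motifs were chosen with the sequences in view, and a match is a description of letters, not a site shown to be bound.

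The libraries held 21349516 to 30992040 counts on genes, and the 7 members together took 138 to 657 of them, so each value below rests on few counts. The 12 markers of retinal neurons and Müller glia, which check the labelled tissue, summed to 26910 to 43415 CPM (counts per 1000000 counts of a library, scaled by TMM) and none was at 0. The library names use the numbers S1 to S6 in 2 sets, told apart here by the numbers' repetition and the style of the names, since the labels do not call them batches. Read so, fluvastatin and MBV libraries share one set and PBS lies in the other with the combined group, so in any comparison with PBS treatment and set cannot be told apart. Pigment cell markers summed to 99.5 to 147 CPM with PBS, 36.8 to 45.3 with fluvastatin and 27.7 to 50.8 with MBV. Their part in the differences from PBS was not tested. MBV replicate 3 stood apart in the Schlafen genes. Their summed level there was 28.1 CPM, against 6.30 and 8.33 in the other MBV libraries, 5.76 to 8.62 with PBS and 6.06 to 7.46 with fluvastatin. It held the highest level of 5 of the 7 members but of 12.3% of all 19115 genes with a count, so results are given with and without it. This library was picked out after its values were seen.

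**Figure D2:**
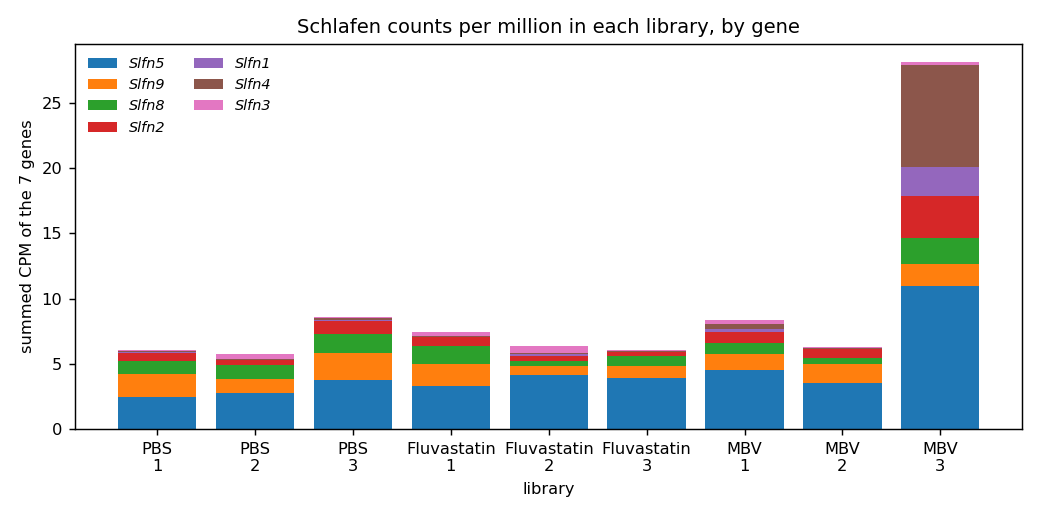
Summed CPM of the 7 Schlafen genes in each of the 9 libraries, stacked by gene. MBV replicate 3 reaches 28.1 CPM while the other 8 libraries lie between 5.76 and 8.62, and in it Slfn4 makes up a visible part of the bar.

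Of the short forms, Slfn1, the founding member named for its ability to halt the division of thymocytes, was close to undetected outside 1 library. Its counts were 2, 0 and 2 (PBS), 1, 4 and 1 (fluvastatin) and 7, 0 and 53 (MBV). Within the MBV group it thus ran from no count to the highest of all, and the MBV libraries overlapped both other groups. A count of 3 or fewer in a library is at the limit of detection here, and both PBS and fluvastatin were at or near it. Slfn2, which keeps T cells and monocytes quiescent and shields tRNAs from cleavage, was counted 19, 10 and 26 times after PBS, 16, 11 and 7 times after fluvastatin, and 23, 16 and 75 times after MBV. In CPM its MBV libraries, 0.731 to 3.21, lay above all 3 fluvastatin libraries, 0.297 to 0.659, and overlapped those with PBS, 0.341 to 0.988.

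Of the intermediate forms, Slfn4, a gene of monocytes, macrophages and other myeloid cells, was at or near the limit of detection after PBS (4, 3 and 3 counts) and fluvastatin (2, 3 and 1 counts). After MBV its counts were 11, 1 and 182. The level in MBV replicate 3, 7.78 CPM, was 19.4 times the highest of the other 8 libraries, the largest such ratio of the 7 members. Slfn4 made up 27.7% of that library's Schlafen counts (95% Wilson interval 24.4 to 31.2%, counting error only), against 0.699 to 4.82% in the others. Slfn3, its nearest neighbour in the cluster, did not share this pattern. Its counts were 1, 11 and 3 (PBS), 7, 14 and 2 (fluvastatin) and 7, 2 and 5 (MBV), and its highest level was in fluvastatin replicate 2.

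Of the long forms, Slfn5, a mainly nuclear protein, had the most counts in every library. These were 75, 82 and 100 (PBS), 81, 111 and 92 (fluvastatin) and 125, 77 and 257 (MBV). Its mean CPM was 3.01 ± 0.706 (PBS), 3.80 ± 0.417 (fluvastatin) and 6.36 ± 4.05 (MBV; SD, n = 3 each), and the SD with MBV came from replicate 3 at 10.99, since the others were at 4.57 and 3.52. Slfn9 counts were 55, 32 and 53 (PBS), 40, 19 and 23 (fluvastatin) and 32, 32 and 39 (MBV). With MBV it varied the least of the 7 relative to its mean, 1.43 ± 0.251 CPM, and its highest level was in PBS replicate 3. Slfn8 counts were 30, 31 and 40 (PBS), 34, 9 and 17 (fluvastatin) and 23, 10 and 46 (MBV). Its groups overlapped fully, at 1.18 ± 0.294, 0.819 ± 0.539 and 1.09 ± 0.785 CPM.

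**Figure D3:**
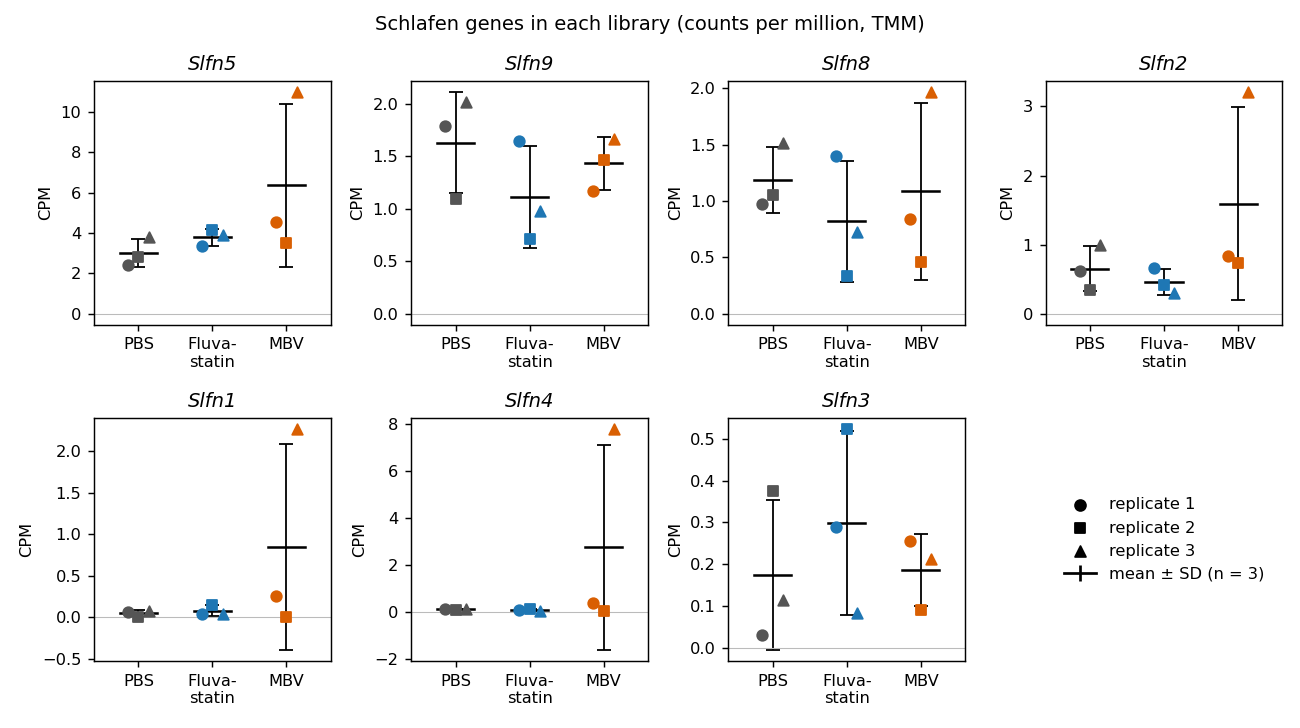
CPM (TMM) of each Schlafen gene in the 9 libraries, grouped by treatment, with a marker shape for each replicate; the bar is the mean and the whiskers the SD of 3 libraries, and each panel has its own axis. MBV replicate 3 (orange triangle) is the highest point for Slfn5, Slfn8, Slfn2, Slfn1 and Slfn4, and not for Slfn9 or Slfn3.

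Levels can be compared between genes per kilobase of exon. With PBS, Slfn5 led at a mean level of 0.465 CPM per kb, followed by Slfn2 (0.326), Slfn8 (0.287) and Slfn9 (0.246), and the libraries of neighbours in this order overlapped. A gap followed, with Slfn3 (0.0263), Slfn4 (0.0261) and Slfn1 (0.0232) not told apart from each other. With fluvastatin the order of the first 4 was the same, and the range of Slfn5 (0.586) did not overlap that of Slfn2 (0.229). Within each single library of every group Slfn5 lay above Slfn2. With MBV, Slfn4 (0.622) and Slfn1 (0.416) ranked above Slfn8 (0.264) and Slfn9 (0.216) in the mean, which replicate 3 set. There Slfn4 was at 1.76 and Slfn1 at 1.12 CPM per kb, while in MBV replicates 1 and 2 Slfn4 (0.0910 and 0.0103) and Slfn1 (0.126 and 0) lay below Slfn8 (0.204 and 0.111) and Slfn9 (0.176 and 0.220). Slfn3 had the lowest mean (0.0283), with its libraries below those of Slfn9 but overlapping those of Slfn1 and Slfn4.

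MBV and fluvastatin were compared first, since this comparison uses no library of the contrast that led to the family's choice and lies within 1 set of library numbers. No member passed an FDR of 0.05 in edgeR's quasi-likelihood test, nor in DESeq2, and 11 of 18721 genes did (0.0588%). At an unadjusted p under 0.05 there were 3 members (Slfn4, Slfn2 and Slfn1), against 10.7% of all genes. The summed counts of Slfn4 gave a ratio of 33.2 (95% counting interval 15.0 to 91.6), and its fitted log2 fold change was 5.00 ± 1.57 (SE, edgeR FDR 0.345, n = 3 per group). The ratio was 3.03 (1.05 to 9.84) without MBV replicate 3. For Slfn1 the ratio was 10.3 (4.45 to 29.1), with a log2 fold change of 3.31 ± 1.32 (SE, edgeR FDR 0.429), and without that library the ratio was 1.77 (0.508 to 6.36). These intervals cover counting error only.

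Slfn2 was the 1 member whose MBV and fluvastatin libraries did not overlap, as was the case for 16.4% of all genes. Its log2 fold change was 1.79 (95% interval 0.44 to 3.14, edgeR FDR 0.369), and 0.78 without MBV replicate 3. Slfn5 was 0.74 higher with MBV on the log2 scale (−0.07 to 1.56, edgeR FDR 0.502), which came to 0.10 without that library. Slfn9 (0.37, −0.38 to 1.11), Slfn8 (0.42, −0.90 to 1.73) and Slfn3 (−0.66, −2.18 to 0.87) had intervals that include both directions, and Slfn8 turned to −0.30 without MBV replicate 3. The median log2 fold change of the 7 members was 0.74 (0.24 without MBV replicate 3), beside 0.01 over all genes tested.

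MBV was then compared to PBS, a comparison that shares the PBS libraries with the contrast behind the choice of the family and crosses the sets of library numbers. Again no member passed an FDR of 0.05 in edgeR, where 4937 of 18897 genes did (26.1%). There were 3 members (Slfn4, Slfn1 and Slfn5) at an unadjusted p under 0.05, against 37.8% of all genes. DESeq2 called Slfn4 and Slfn5, 2 of the 6 members to which it gave an adjusted p, beside 4653 genes in all. Slfn4 was closest to the threshold, with a log2 fold change of 4.50 ± 1.48 (SE, edgeR FDR 0.0525) and a ratio of counts of 23.1 (12.3 to 48.9). Over 12 other settings its FDR ran from 0.0144 to 0.399, and 6 of them placed it under 0.05. Without MBV replicate 3 the ratio was 2.10 (0.833 to 5.44) and the edgeR FDR 0.399. Slfn1 had a log2 fold change of 4.03 ± 1.45 (SE, edgeR FDR 0.0714) and a ratio of 17.8 (6.62 to 67.6), which was 3.07 (0.780 to 14.3) without that library.

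Slfn5 was 1.07 higher with MBV than with PBS on the log2 scale (0.20 to 1.95, edgeR FDR 0.0723), and 0.43 higher without MBV replicate 3. Slfn2 was 1.29 higher (−0.07 to 2.65, edgeR FDR 0.153), and 0.29 higher without it. Slfn9 (−0.20, −0.82 to 0.43), Slfn8 (−0.12, −1.16 to 0.91) and Slfn3 (0.12, −1.66 to 1.91) had intervals that include both directions, and Slfn8 was at −0.84 without MBV replicate 3. No member had non-overlapping libraries, against 41.3% of all genes. The members' median was 1.07 (0.29 without MBV replicate 3), beside 0.01 over all genes.

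Fluvastatin was last compared to PBS, with the same PBS libraries and the same limits as for MBV. No member passed an FDR of 0.05 in edgeR, nor did the 3 to which DESeq2 gave an adjusted p (Slfn5, Slfn8 and Slfn9), and none had an unadjusted p under 0.05, while 3687 of 18818 genes passed in edgeR (19.6%) and 32.5% had such a p. No member's libraries were apart, as they were for 36.6% of genes. On the log2 scale Slfn5 was 0.34 higher (−0.07 to 0.75), Slfn9 was at −0.56 (−1.31 to 0.19), Slfn8 at −0.54 (−1.49 to 0.42), Slfn2 at −0.49 (−1.51 to 0.52) and Slfn3 at 0.79 (−0.96 to 2.55). The counts of Slfn1 and Slfn4 in these 6 libraries were 4 at most, and their ratios were 1.74 (0.412 to 8.37) and 0.695 (0.208 to 2.11). Slfn8 passed in 1 setting, at an edgeR FDR of 0.0480 without fluvastatin replicate 1, where 4402 genes did. The members' median was −0.49, beside −0.01 over all genes.

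**Figure D4:**
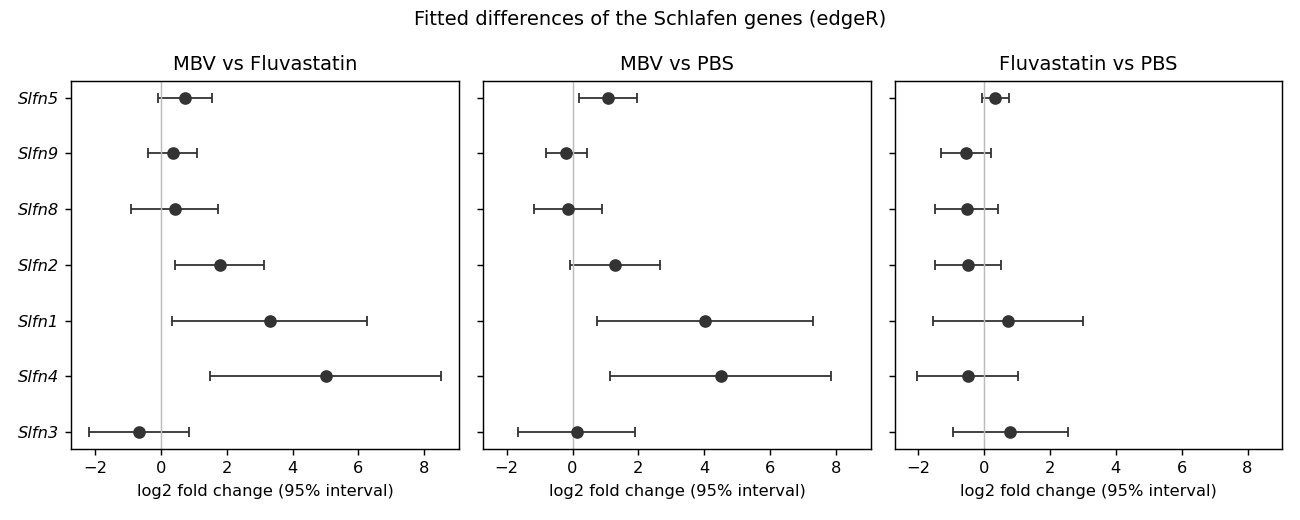
Fitted log2 fold changes of the 7 Schlafen genes with 95% intervals in the 3 comparisons (edgeR, 3 libraries per group). The intervals of Slfn1 and Slfn4 are the widest in both comparisons of MBV, and all 7 include 0 for fluvastatin against PBS.

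The members differed in which of them varied together over the 9 libraries, given as a description since the points share their groups and 1 library sets much of it. On log2(CPM + 0.5), Slfn1 and Slfn4 had a Pearson r of 0.99 (0.86 without MBV replicate 3), Slfn5 and Slfn4 of 0.92 (0.38 without it), and Slfn2 and Slfn4 of 0.91 (0.42 without it). Slfn9 and Slfn8, the minus-strand neighbours with alike promoters, had an r of 0.71 either way. Their transcripts also share 156 stretches of 75 bases, and the same gene on the opposite strand overlaps both. The part of misplaced or antisense reads in this r was not tested, nor was that of the promoters. Slfn9 and Slfn3 ran opposite, with an r of −0.61 (−0.64).

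Among 15051 other genes with a mean of at least 10 counts, those most like Slfn4 were Plbd1, Plac8 and Saa3, the last an acute-phase serum amyloid gene, with r of 0.98, 0.98 and 0.97 over 9 libraries. Plbd1, which encodes a phospholipase B-like protein of granulocytes, was counted 10, 10 and 15 times after PBS, 9, 13 and 11 times after fluvastatin, and 19, 6 and 94 times after MBV. Without MBV replicate 3 the r of these genes to Slfn4 were 0.70, 0.71 and 0.47. Those most like Slfn2 were all interferon-inducible: Ifi204 (0.99), a sensor of DNA, Oas3 (0.97), an oligoadenylate synthetase, and Ifi30 (0.96), a lysosomal thiol reductase. For Ifi204 and Ifi30 the likeness was 0.94 and 0.93 without MBV replicate 3, and for Oas3 0.86. Slfn5 ran closest to Arhgdib (0.98), a regulator of small GTPases in blood cells, Sp100 (0.96), a nuclear body protein, and Wdfy4 (0.96), which acts in antigen cross-presentation, and without that library the r were 0.96, 0.93 and 0.81. Slfn9 ran with Rhoj, a small GTPase of endothelial cells, Fat1, an atypical cadherin, and Col4a6, a basement membrane collagen (0.93 each). Slfn8 ran with Dusp7, a phosphatase of MAP kinases (0.93), Sdc4, syndecan-4 (0.91), and F13a1, the A chain of coagulation factor XIII (0.91). Slfn1 and Slfn3 had too few counts for this.

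The interferon pathway upstream of the family showed small differences. Of 13 receptors and signalling genes none passed between MBV and fluvastatin. Compared to PBS, Tyk2 was higher with MBV (log2 fold change 0.21) and Jak2 (−0.17) and Jak1 (−0.14) were lower, each with an edgeR FDR under 0.05, and all are kinases of the receptors. Between fluvastatin and PBS none of the 13 passed. For these and the following genes, the share of all genes that passed was 26.1% with MBV and 19.6% with fluvastatin, each against PBS. Of 25 interferon-stimulated genes, none passed between MBV and fluvastatin, with a median log2 fold change of 0.36 (0.20 without MBV replicate 3). Between MBV and PBS 1 passed, Rsad2 (viperin, an antiviral enzyme), which was 0.96 higher with MBV on the log2 scale (edgeR FDR 0.0166), and the median was 0.34 (0.23 without MBV replicate 3). Between fluvastatin and PBS 2 passed, the chemokine Cxcl10 at a log2 fold change of 2.72 (edgeR FDR 0.0299) and Ifi27l2a at −1.16 (edgeR FDR 0.0467), and the median was −0.11. The summed level of the 25 was 110 to 188 CPM with PBS, 90.8 to 172 with fluvastatin and 141 to 169 with MBV, so the groups overlapped. MBV replicate 3 was the highest library for 9 of the 25 and PBS replicate 3 for 10, against 12.3% and 13.8% of all genes with a count.

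Markers of blood-borne myeloid cells moved with the Schlafen genes in MBV replicate 3. That library was the highest for 9 of 12 monocyte markers, 8 of 12 detected neutrophil markers and 7 of 14 detected T and NK cell markers. It was also the highest for 3 of 7 endothelial markers, but for 1 of 10 microglia markers and none of 5 B cell markers. Over all genes with a count the share was 12.3%. Several of these T and NK cell markers, and some of the neutrophil markers, had 3 counts or fewer there, at the limit of detection. Ccr2, the chemokine receptor of inflammatory monocytes, and Ly6c2, their surface marker, were picked after their values were seen. Ly6c2 counts were 2, 0 and 1 (PBS), 1, 2 and 1 (fluvastatin) and 2, 1 and 67 (MBV). Those of Ccr2 were 21, 8 and 40, then 12, 32 and 13, then 65, 13 and 222 in the same order. In both genes, as in Slfn4, MBV replicate 3 was the highest library.

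The 12 monocyte markers summed to 112 to 150 CPM with PBS, 132 to 140 with fluvastatin and 142 to 197 with MBV, of which 86.6 to 99.1% in each library came from the matrix genes Fn1 and Vcan. The other 10 summed to 2.29 to 6.50, 1.82 to 2.54, and 5.23, 1.42 and 26.5 in MBV replicates 1 to 3. The 14 neutrophil markers summed to 16.3 to 51.6, 24.7 to 28.1 and 38.9 to 73.4, mostly from Lcn2 and Mmp9. The microglia markers were at 76.1 to 88.0, 67.6 to 79.3 and 73.2 to 80.2. The defining markers Ly6g and Elane of neutrophils, Cd3g of T cells and Ncr1 of NK cells were at 0 in all 9 libraries. Between MBV and fluvastatin no gene of these lists passed. The median log2 fold changes were 2.05 for monocyte and 1.17 for neutrophil markers, and 0.65 and 0.51 without MBV replicate 3. In that setting, where 197 genes were called, 1 of 11 neutrophil markers passed, higher with MBV, and 1 of 12 retinal markers, lower with MBV. Compared to PBS, 2 of the 12 monocyte markers passed with MBV, Fn1 (fibronectin, log2 fold change 1.05, edgeR FDR 0.000905) and Vcan (versican, −1.73, edgeR FDR 0.0393), and the medians of the monocyte and neutrophil lists, 1.54 and 0.66, were −0.09 and −0.17 without that library. Of the neutrophil markers, the protease Mmp9 was higher and lactoferrin, Ltf, lower with MBV than with PBS, and the same held for fluvastatin, where S100a8 was lower too (edgeR FDR under 0.05 each). Fluvastatin libraries also had higher Fn1 and lower Vcan than PBS. Of the other lists compared to PBS, no T and NK cell or B cell marker passed, and 5 of 7 pigment cell markers were lower with either treatment. The microglia marker Gpr34 was lower with fluvastatin, and of 7 endothelial markers Cdh5 was higher with MBV and Flt1 lower with fluvastatin. Of 12 retinal markers 4 were lower with MBV, and 4 were lower and 1 higher with fluvastatin. Beside these list counts, 26.1% of all genes passed with MBV and 19.6% with fluvastatin against PBS, in either direction. The part of these cells in the Schlafen values was not tested, and in whole retina more cells of a type and more RNA per cell cannot be told apart.

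The genes beside the cluster were looked at as well. Of the 4 nearest deposited genes on each side, Rasl10b alone passed an FDR of 0.05, in both comparisons with PBS. It differed by 0.26 with MBV (edgeR FDR 0.00439) and by 0.23 with fluvastatin (edgeR FDR 0.0398). Over all genes 26.1% passed between MBV and PBS, and 19.6% between fluvastatin and PBS. None of the 8 was highest in MBV replicate 3, as 12.3% of all genes with a count were, and so few genes cannot be told from that share. Slfn14, a further Schlafen gene beyond the cluster's edge known for cleaving RNA in red cell and platelet precursors, was counted 4, 1 and 1 times after PBS, 0, 0 and 2 times after fluvastatin, and 3, 3 and 1 times after MBV. Slfnl1, a Schlafen-like gene, had counts of 21, 22 and 9, then 20, 22 and 14, then 15, 15 and 8. In MBV replicate 3, where Slfn1 and Slfn4 were highest, these genes had 1 and 8 counts.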

How the data were processed

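Total RNA of 9 whole retinae libraries (3 PBS, 3 fluvastatin, 3 MBV) was analysed. The authors used CLC Genomics Workbench to align paired reads of 75 bases to GRCm39, and deposited raw counts per gene without normalization. The 6 count columns of the combined treatment name no library and were not used, nor were the authors' columns of fold changes, p-values and group means. The planned test of the combined treatment was therefore not run.

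Genes with at least 1 count in the 6 libraries compared were scaled by TMM and tested in R 4.3.3 with edgeR 4.0.16 (quasi-likelihood, 2 groups alone, two-sided, Benjamini-Hochberg over all genes, FDR under 0.05). DESeq2 1.42.0, other scalings, filters and sets of libraries were alternatives. Intervals of ratios are exact counting intervals on the library totals scaled by TMM. Tested on simulated counts for MBV and fluvastatin (18721 genes, 200 changed, 3 draws), 92.8 to 100% of the changed genes were called, beside 13 false calls or fewer. The changed genes were drawn from those with a mean of at least 10 counts, and the same spread between replicates was set for all genes. How often a change would be called at the counts and spread of the members was not tested. CPM, correlations and promoter motifs were computed with Python 3.11.15, pandas 2.3.3 and scipy 1.17.1. Libraries held 21349516 to 30992040 counts, and the coefficient of variation between replicates common to all genes was 7.78 to 10.1%. The members varied more, most of all Slfn4 with MBV, at 2.74 ± 4.37 CPM (SD, n = 3). The members, the 11 lists (125 entries) and the tests were chosen with earlier results of these data known. Named genes are the members, the 3 genes most like each member, the 4 neighbours on each side, and in each list the 2 called genes of lowest FDR per direction and those at 0. Exceptions are named as such, the sum of the monocyte markers without Fn1 and Vcan and the members' median without MBV replicate 3 were added after the data were seen, and results for some list genes are not reported here.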

Additional observations from a re-analysis of the deposited data

How the results depend on the processing

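Between MBV and fluvastatin, 11 genes were called, against 5 with a minimum of 10 counts in 2 libraries, 122 with DESeq2, 0 with the replicate number as a block, 27 with 1 fit of all 9 libraries, 2 with a fold change of at least 2, and 0 (without MBV replicate 1) to 197 (without MBV replicate 3) with 1 library left out. No setting called a member there. For MBV and PBS, 4937 genes were called, 369 with a fold change of at least 2, and 2711 (without PBS replicate 1) to 5664 with 1 library left out. The members called there were 1 on library totals alone (Slfn4, beside 4690 genes) and 2 with DESeq2 (beside 4653 genes). With the block and with 1 fit of all libraries 3 were called, Slfn1, Slfn4 and Slfn5 in both, beside 3876 and 4954 genes. With 1 library left out 0 to 3 were called. These were Slfn4 without MBV replicate 1 (3417 genes), the same 3 without MBV replicate 2 (3619 genes), and none without MBV replicate 3. In the main fit 26.1% of all genes passed, and so few members cannot be told from such a share. For fluvastatin and PBS, 3687 genes were called, 220 with a fold change of at least 2, and 1726 (without PBS replicate 1) to 4402 with 1 library left out, where members called were 0 to 1. Without fluvastatin replicate 2 there were 2113. The causes were not tested.

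The sign of a member's log2 fold change turned in 9 of the fits with 1 library left out and under no scaling. Between MBV and fluvastatin these were Slfn3 (range −1.09 to 0.023, turned without fluvastatin replicate 2) and Slfn8 (−0.30 to 1.05, turned without MBV replicate 3). For MBV and PBS they were Slfn3 (−0.39 to 1.37, with −0.39, −0.086 and −0.18 without PBS replicates 1 and 3 and MBV replicate 1) and Slfn8 (−0.84 to 0.23, with 0.087, 0.041 and 0.23 without PBS replicate 3 and MBV replicates 1 and 2), and for fluvastatin and PBS Slfn1 (−0.14 to 1.16, turned without fluvastatin replicate 2). Deviations of same-numbered libraries correlated at −0.24 to 0.13, and those of differently numbered libraries at −0.20 to 0.25. With 3 libraries per group this cannot settle whether the replicate numbers pair the samples. The block changed no other call of a member. The alternatives planned for the combined treatment were not run. With the counts of Slfn1, Slfn3 and Slfn4 at or near 3 in most libraries, depth limits their values more than those of the others.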
